A study of Mus musculus with 8 samples.

Results

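The Hox genes of mouse embryonic fibroblasts (MEFs) were described library by library and between wild-type (WT) and Dp1Tyb cultures. They were taken as the protein-coding genes whose symbol in the GRCm38 annotation is Hoxa, Hoxb, Hoxc or Hoxd followed by a number. The annotation holds 39 such genes, and 37 of them were among the 19493 endogenous genes with counts. Hoxb1 and Hoxd1 were not analysed here. All 11 Hoxa genes, 9 of 10 Hoxb genes, all 9 Hoxc genes and 8 of 9 Hoxd genes were covered. RNAseq with ERCC spike-ins, synthetic RNAs added to a fixed number of cells, was available for 4 WT and 4 Dp1Tyb libraries of MEFs grown from E14.5 embryos. The labels give the strain of both groups as C57BL/6J.129P2, and the mice had been backcrossed to C57BL/6JNimr. Dp1Tyb embryos carried in addition a duplication on chromosome 16 that models the extra chromosome of Down syndrome. No Hox cluster lies on chromosome 16, so both groups have the same number of Hox gene copies. The embryos had been decapitated, eviscerated and minced before culture, which pools fibroblasts of trunk, limbs and tail in each library and leaves most of the head out. In such bulk samples, fewer cells of a type and less RNA per cell cannot be told apart. The paper describes MEFs from littermate embryos without naming the spike-in experiment, and the labels do not give the litter of a library. The p-values refer to the spread between these cultures, which the tests estimate in part over all genes together.

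Hox proteins are transcription factors that bind DNA through a homeodomain, together with partners of the Pbx and Meis families. The genes lie in clusters in the order in which they are used along the body: low paralogue numbers at the 3′ end of a cluster act towards the head, and high numbers at the 5′ end act towards the tail and, in the Hoxa and Hoxd clusters, towards the tip of the limb. Polycomb proteins keep unused Hox genes silent, and fibroblasts in culture are known to keep much of the Hox pattern of the body site they came from.

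Total counts ran from 17698900 to 26471758 per library. The cells carried the RNA of fibroblasts: all 14 fibroblast markers were listed, and their summed level per length under relative scaling, which sets libraries against each other by the endogenous genes, ran from 2974 to 4097 RPKM (counts scaled by exon length and library size) in WT and from 3343 to 4055 RPKM in Dp1Tyb. The summed relative level of 5 epithelial markers ran from 3.54 to 11.95 RPKM in WT and from 2.76 to 9.03 RPKM in Dp1Tyb. The epithelial marker Epcam alone ran from 0.105 to 0.285 RPKM over the 8 libraries. The summed relative level of 6 leukocyte markers ran from 160 to 238 RPKM in WT and from 94.0 to 200 RPKM in Dp1Tyb. The genes Xist and Ddx3y, which follow the sex of the embryo, marked WT replicate 2 and Dp1Tyb replicate 1 as female and the other libraries as male. Endogenous RNA per spike-in, relative to the geometric mean, ran from 0.713 in WT replicate 3 to 1.19 in WT replicate 1, and from 0.688 in Dp1Tyb replicate 2 to 1.31 in Dp1Tyb replicate 4. Spike-in scaled levels, which measure RNA per cell, carry this spread.

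The members share the homeobox, and the 39 bases that encode its DNA-contacting helix could be found by their translation in transcripts of 33 of the 37 genes (GENCODE M21, GRCm38). The stretches below are those of paralogue group 13, the most posterior group, and of the most highly expressed genes of the Hoxa and Hoxb clusters. They are shown because they give the base differences between members over their most conserved stretch. They are written 5′ to 3′, and capitals mark the bases at which a gene differs from Hoxd13.
Hoxd13: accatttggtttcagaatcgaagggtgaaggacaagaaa
Hoxa13: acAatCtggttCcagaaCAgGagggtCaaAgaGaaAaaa
Hoxb13: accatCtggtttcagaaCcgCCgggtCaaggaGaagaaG
Hoxc13: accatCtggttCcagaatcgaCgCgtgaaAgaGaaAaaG
Hoxb9: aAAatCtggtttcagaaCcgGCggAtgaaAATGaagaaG
Hoxa10: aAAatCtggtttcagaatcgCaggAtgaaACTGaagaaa
The 3 other group 13 genes matched Hoxd13 at 74.4% to 82.1% of the bases, and the 29 remaining members at 61.5% to 79.5%. Over whole transcripts, the longest run of bases shared exactly by a pair of members was 388 between Hoxd3 and Hoxd4, whose annotated exons overlap, and 168 between Hoxc5 and Hoxc10, which overlap as well. The next longest run was 52 bases, between Hoxa6 and Hoxb4. Hoxd3 shares 62.3% of its exon bases with Hoxd4 or a further gene model on the same strand, and Hoxd4 shares 52.3%, so counts of this pair are uncertain. On the opposite strand, 52.9% of the exon bases of Hoxb3, 35.0% of those of Hoxa11, 27.3% of those of Hoxb2 and 25.4% of those of Hoxa3 overlap antisense genes, and the strand setting of the counting is not given in the sources used here.

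All 37 Hox genes had at least 1 count in every library. On the spike-in scaled RPKM scale, in which levels of different genes can be compared, 3 genes had a mean over the 8 libraries of at least 10 RPKM, 25 lay between 1 and 10 RPKM, and 9 lay under 1 RPKM. Of the 36 genes with enough counts to be tested, 12 lay above the median of all tested genes, 3.91 RPKM. The order of levels differed between the clusters. In the Hoxd cluster the level was highest at the 5′ end, in the Hoxa cluster in the middle and 5′ parts, in the Hoxc cluster at paralogues 6 to 10, and in the Hoxb cluster at Hoxb9.

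**Figure D1:**
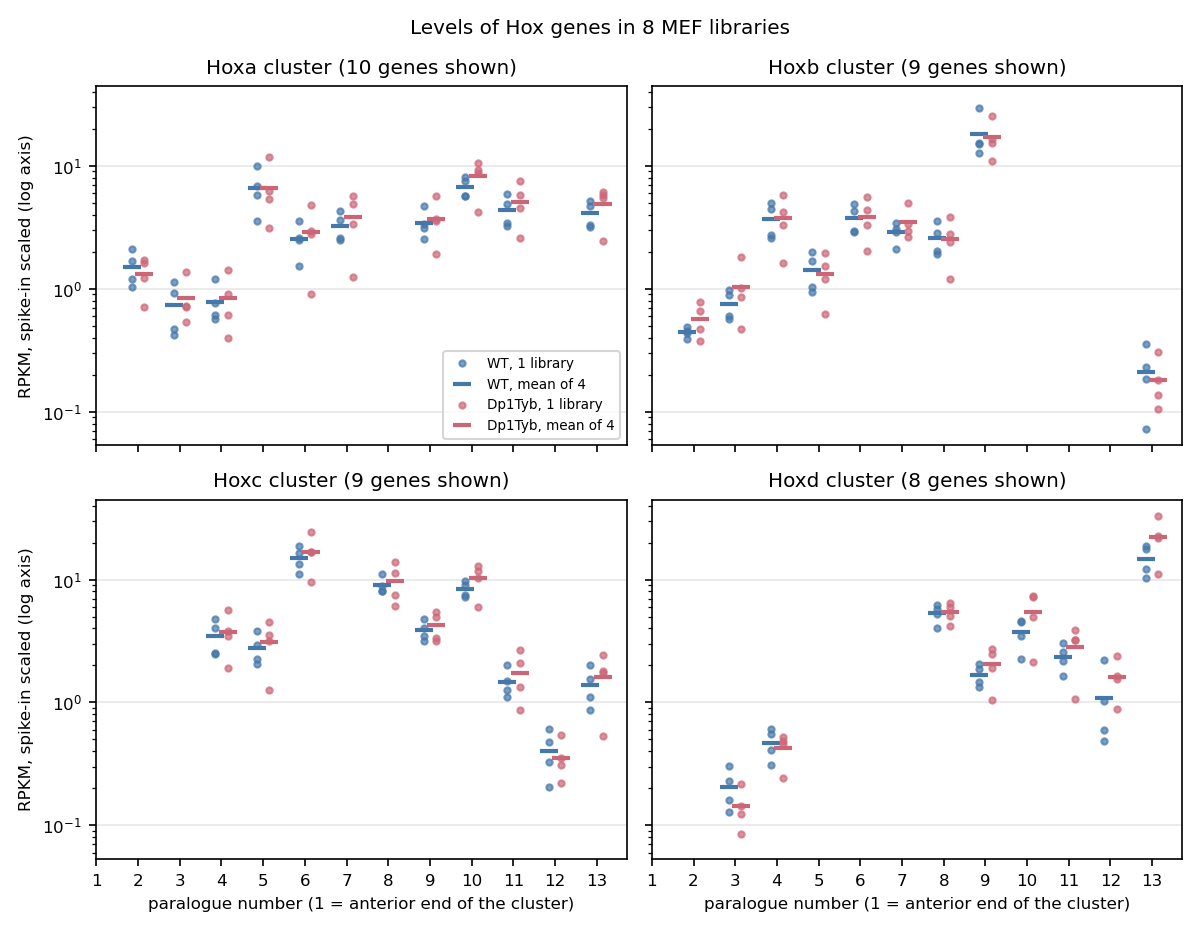
Level of 36 of the 37 Hox genes (y, spike-in scaled RPKM, log axis) against its paralogue number (x) in the 4 clusters. Points are single libraries and bars are group means of 4; Hoxd13 and Hoxb9 stand at the top of their clusters, while Hoxb13 and Hoxd3 stay below 1 RPKM.

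In the Hoxd cluster (chromosome 2, plus strand), the gene at the 5′ end was the highest and those at the 3′ end were the lowest, without a steady order between them. Hoxd13, which patterns the digits and the genital tubercle, had the highest mean of all members, 18.4 RPKM. Hoxd8 followed at 5.36, Hoxd10, a gene of the limb and lumbar region, at 4.57, Hoxd11 at 2.60, Hoxd9 at 1.86 and Hoxd12 at 1.35 RPKM. The 3′ genes Hoxd4 and Hoxd3 were at 0.449 and 0.174 RPKM. The paralogues 9 to 13 made up 81.5% ± 5.08 of the summed level of the cluster (SD, n = 8), and Hoxd13 alone made up 52.2% ± 4.48.

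In the Hoxa cluster (chromosome 6, minus strand), no gene stood out in this way. Hoxa10, a gene of the lumbar spine and the reproductive tract, was highest with a mean of 7.48 RPKM. Hoxa5, which acts in the neck, the chest and the lung, had 6.60, Hoxa11, a gene of the forearm and lower leg, 4.73, and Hoxa13, the partner of Hoxd13 in the hand and foot, 4.51 RPKM. Hoxa9, Hoxa7 and Hoxa6 had 3.57, 3.53 and 2.71 RPKM. Hoxa2 to Hoxa4, near the 3′ end, lay between 0.784 and 1.41 RPKM. The paralogues 9 to 13 made up 55.3% ± 4.79 of the summed level and the paralogues 5 to 8 made up 33.7% ± 4.82 (SD, n = 8).

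In the Hoxb cluster (chromosome 11, plus strand), Hoxb9, a gene of the thorax, reached 17.6 RPKM. Hoxb4, Hoxb6, Hoxb7 and Hoxb8 lay between 2.57 and 3.79 RPKM, Hoxb5 at 1.37, and Hoxb2 and Hoxb3 at 0.505 and 0.894 RPKM. Hoxb13, which acts in the tail and the prostate and lies apart from the rest of the cluster, was the lowest of the 37 genes but for Hoxd3, at 0.196 RPKM. Its counts were 3 to 21 per library, so that the counting error alone was 57.7% of the lowest count.

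In the Hoxc cluster (chromosome 15, plus strand), Hoxc6 was highest at 15.9 RPKM, followed by Hoxc8 at 9.36, Hoxc10, a hindlimb gene, at 9.32 and Hoxc9 at 4.05 RPKM. Hoxc6 and Hoxc8 act in the thorax. Hoxc4 and Hoxc5 had 3.59 and 2.94 RPKM. Hoxc11 and Hoxc13, a gene of hair and nail, had 1.603 and 1.498 RPKM. Hoxc12 had 3 to 13 counts per library and a mean of 0.379 RPKM, and was left out of the tests by the filter on low counts. In contrast to the Hoxd cluster, the paralogues 5 to 8 made up the largest share, 57.8% ± 2.46 (SD, n = 8).

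The Hoxc cluster contributed 31.8% ± 1.87 of the summed RPKM of all Hox genes, the Hoxa cluster 23.8% ± 1.48, the Hoxd cluster 22.4% ± 3.52 and the Hoxb cluster 22.0% ± 2.72 (SD, n = 8). These shares do not depend on the scaling of the libraries. The Hoxd share was 24.1, 19.6, 19.96 and 18.4% across WT replicates 1 to 4 and 29.1, 23.3, 24.6 and 20.5% across Dp1Tyb replicates 1 to 4. The mean was 20.5% ± 2.47 for WT and 24.4% ± 3.58 for Dp1Tyb (SD, n = 4 each), and the groups overlapped. In both groups replicate 1 had the highest Hoxd share and replicate 4 the lowest. The Hoxb share was 20.6, 24.3, 22.3 and 26.4% across WT replicates 1 to 4, and 18.2, 22.5, 18.9 and 22.8% across Dp1Tyb replicates 1 to 4, lowest in replicate 1 of both groups. Of 33 shares compared by their ranges (clusters, parts of clusters and paralogue groups), 1 did not overlap between genotypes: Hoxd3 and Hoxd4 together made up 1.82 to 2.51% of the Hoxd cluster in WT and 1.24 to 1.57% in Dp1Tyb. That share rests on a pair of genes whose exons overlap each other.

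**Figure D2:**
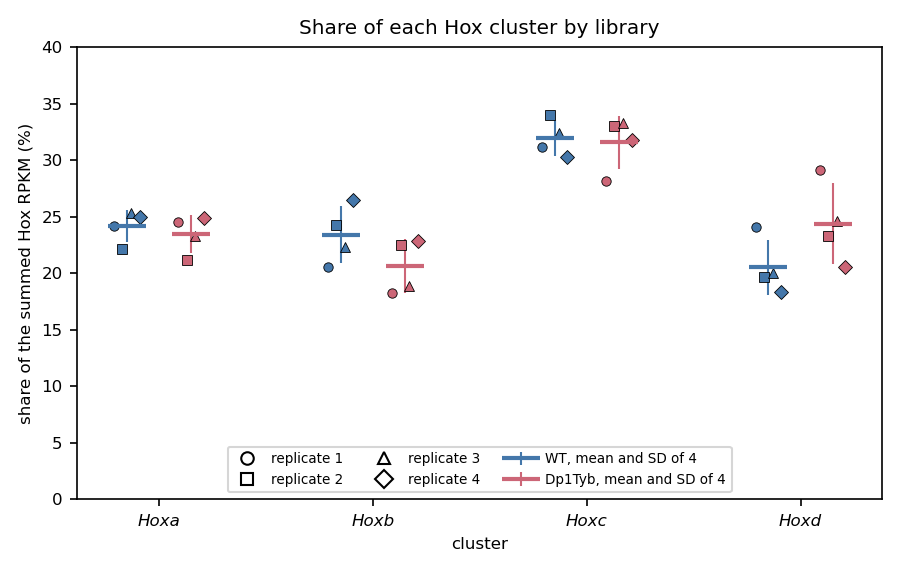
Share of each cluster in the summed Hox RPKM of a library (y, percent) for the 4 clusters (x). Symbols mark the replicate number, bars and lines the mean and SD of 4 libraries; replicate 1 of both genotypes has the highest Hoxd share, 24.1 and 29.1%.

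The libraries differed from each other in the levels of their Hox genes, and this pattern crossed the genotypes. It was read on the relative scale, so that the amount of RNA per spike-in did not enter. Distances between libraries were root mean square differences of log2 CPM (counts scaled by library size alone) over the 36 tested members. WT replicate 1 was nearest to Dp1Tyb replicate 1 and the reverse, at 0.400. WT replicate 2 and Dp1Tyb replicate 2 were each nearest to the other, at 0.375. In all, 6 of the 8 libraries had a library of the other genotype as their nearest over the Hox genes, against 2 of 8 over all tested genes. Each library had more libraries of the other genotype than of its own to be nearest to, and mutual pairs count for both. WT replicate 3 was almost as near to Dp1Tyb replicate 3, at 0.327, as to WT replicate 4, at 0.320. Without the 2 members under 10 counts in a library, an alternative chosen after seeing the data, both pairs were the same, and WT replicate 3 became nearest to Dp1Tyb replicate 4, at 0.273, so that WT replicate 4 alone was nearest to a library of its own genotype. The mean distance was 0.530 over the 12 pairs of the same genotype and 0.504 over the 16 pairs of different genotype. Over all tested genes these means were 0.606 and 0.600. The female library of each of these pairs was matched with a male one.

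**Figure D3:**
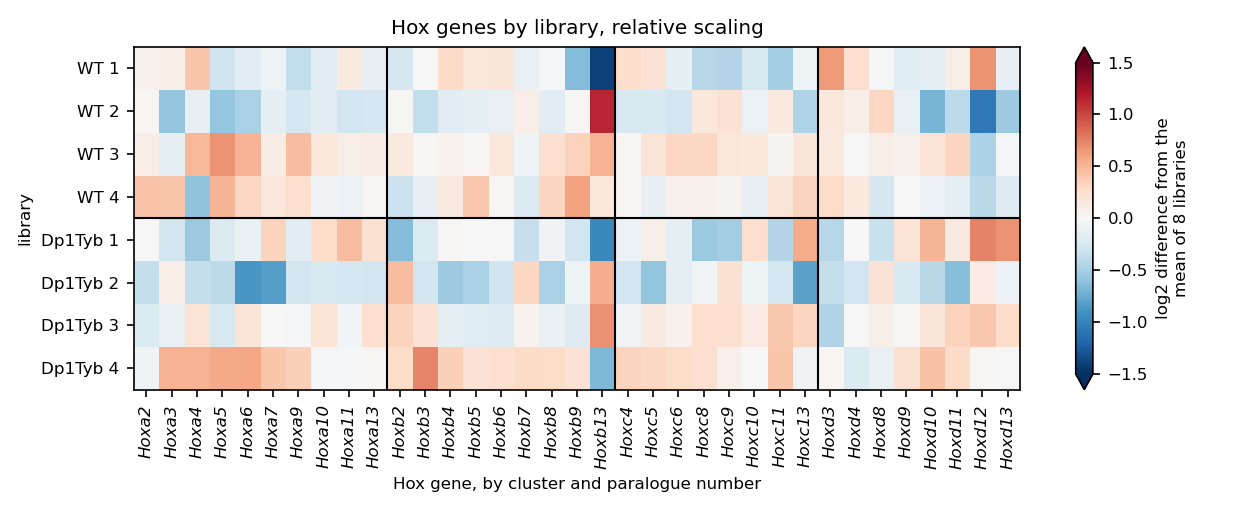
Difference of log2 relative CPM from the mean of the 8 libraries (colour) for 35 of the 36 tested Hox genes (x) in each library (y). Replicates 1 of both genotypes are low for Hoxb9 and Hoxb13 and high for Hoxd12, and replicates 2 are low for Hoxa5, Hoxa6 and Hoxa10.

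WT replicate 1 and Dp1Tyb replicate 1 were the lowest libraries for 6 of the 36 genes, among them Hoxb9, Hoxb13, Hoxc8, Hoxc9 and Hoxc11, and the highest for Hoxa11 and Hoxd12. Over all tested genes this pair was lowest for 12% and highest for 12.5%. WT replicate 2 and Dp1Tyb replicate 2 were the lowest for 15 of the 36 genes, against 10.7% of all tested genes. Those 15 were Hoxa5, Hoxa6, Hoxa7, Hoxa10, Hoxa11, Hoxa13, Hoxb3, Hoxb4, Hoxb8, Hoxc4, Hoxc5, Hoxc6, Hoxc13, Hoxd10 and Hoxd11. The same pair was the highest for 1 member, Hoxd8, and for 13.3% of all tested genes. WT replicate 3 and Dp1Tyb replicate 4 were the highest for 5 members, Hoxa4, Hoxa5, Hoxa6, Hoxa9 and Hoxc6, and for 2.6% of all tested genes. Some single markers of other cells and of fibroblasts differed between these libraries as well, and were not compared for each pair. The summed relative level of the leukocyte markers was highest in WT replicate 1 and lowest in Dp1Tyb replicate 4. The muscle genes Acta1 and Des and the keratin gene Krt18 were lower in replicate 1 than in replicates 2, 3 and 4 of Dp1Tyb: Krt18 was at 0.969 against 4.32 to 5.22 RPKM. In WT, Krt18 was at 1.24 RPKM in replicate 1 and at 2.80 to 5.99 RPKM in the others. The fibroblast gene Col1a1 ran from 525 to 1278 RPKM in WT and from 493 to 1111 RPKM in Dp1Tyb, highest in WT replicate 2 and lowest in Dp1Tyb replicate 1. The part of such differences in the Hox pattern was not tested.

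Among the members that varied most between cultures of a genotype were Hoxb13, Hoxd12, Hoxa6 and Hoxa5. Their between-library SD of log2 relative CPM was 0.97, 0.56, 0.54 and 0.53. The median over the 36 members was 0.33 against 0.28 over the 16470 tested genes. Among genes of similar mean count, from 67.6 to 232.8, the median was 0.31 for the 18 members and 0.31 for 2899 genes, and 15 of the 36 members lay under the median of all genes. Hoxd4, at 0.13, Hoxc10, at 0.16, and Hoxd9, at 0.17, varied least.

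The relative level of Hoxd12, a limb gene, was 1.87, 0.552, 0.841 and 0.881 RPKM across WT replicates 1 to 4 and 1.97, 1.27, 1.55 and 1.18 RPKM across Dp1Tyb replicates 1 to 4. Replicate 1 of either genotype was above all other libraries. Hoxb13 had a relative level of 0.0608, 0.404, 0.258 and 0.198 RPKM in WT and of 0.0876, 0.262, 0.290 and 0.104 RPKM in Dp1Tyb, lowest in both replicates 1.

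The relative level of Hoxa5 was 4.90, 4.02, 9.62 and 8.59 RPKM across WT replicates 1 to 4 and 5.19, 4.58, 5.09 and 8.95 RPKM across Dp1Tyb replicates 1 to 4. WT replicates 3 and 4 and Dp1Tyb replicate 4 formed a high set, and the other libraries were lower by a gap wider than the spread inside either set. Its neighbour Hoxa6 had 2.20, 1.75, 3.52 and 3.05 RPKM in WT and 2.30, 1.32, 2.82 and 3.69 RPKM in Dp1Tyb, with the same libraries highest and the 2 replicates 2 lowest. Hoxb9 had a relative level of 10.7, 16.99, 21.3 and 25.5 RPKM in WT and 13.7, 15.8, 14.6 and 19.5 RPKM in Dp1Tyb. It was highest in WT replicates 3 and 4 and Dp1Tyb replicate 4 as well, and lowest in replicate 1 of either genotype. Hoxa10, by contrast, spanned 6.16 to 8.73 RPKM over the 8 libraries, with an SD of 0.20.

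**Figure D4:**
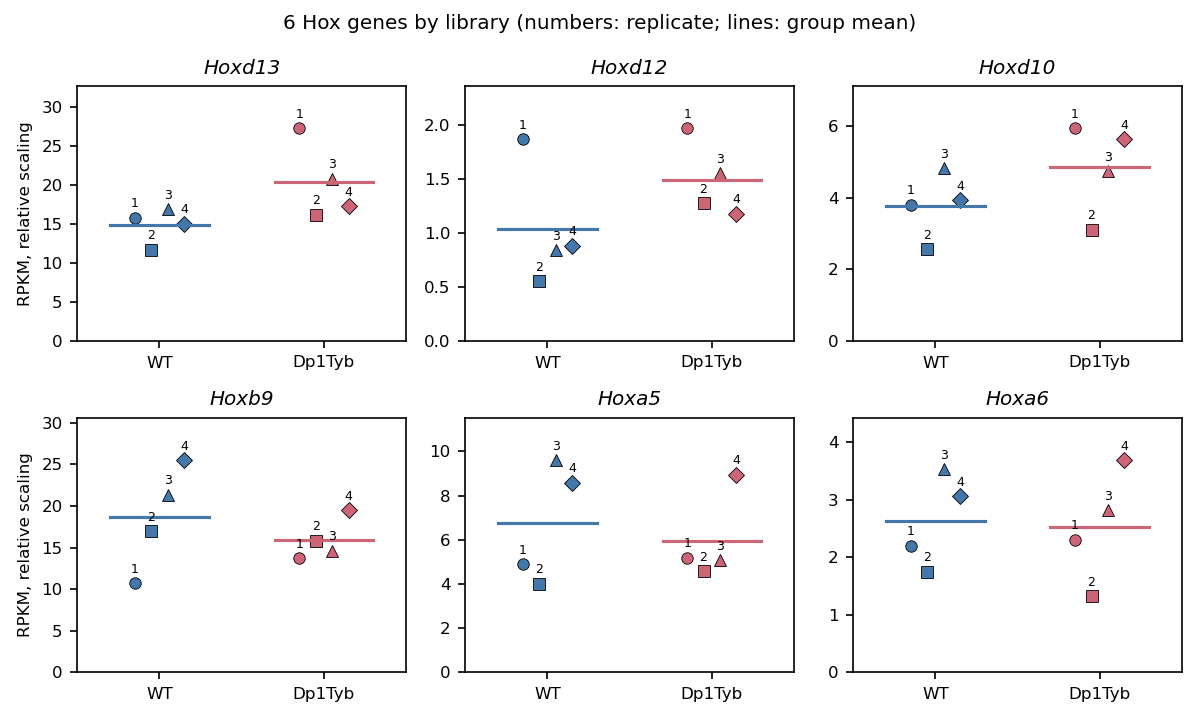
Relative RPKM (y) of Hoxd13, Hoxd12, Hoxd10, Hoxb9, Hoxa5 and Hoxa6 in each library, by genotype (x), with the replicate number beside each point and a line at the group mean. Hoxb9 is lowest and Hoxd12 highest in replicate 1 of both genotypes, and all groups overlap.

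To ask whether the duplication was accompanied by a change in Hox genes, Dp1Tyb was compared with WT by edgeR's quasi-likelihood test over all 16470 tested genes. With Benjamini-Hochberg adjustment, 0 of the 36 tested members passed 0.05, under spike-in scaling, where 0.0121% of all tested genes passed, and under relative scaling, where 0.0182% passed. DESeq2 called 0 members with spike-in size factors and 0 with its own, where it called 0.328% of all genes. At an unadjusted p under 0.05, edgeR found 0 members under spike-in scaling, against 1.17% of all genes, 0.85% higher and 0.316% lower in Dp1Tyb. Under relative scaling it found 2 members against 4.27% of all genes, Hoxd13 above 0, as were 1.74% of all genes, and Hoxd3 below 0, as were 2.53%. DESeq2 with its own size factors found 1, Hoxd13, against 4.28% of all genes, 1.99% higher and 2.29% lower, and with spike-in size factors 0, against 0.88%. The smallest adjusted p of a member was 1.00 in edgeR under either scaling.

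The median log2 fold change, Dp1Tyb against WT, was 0.17 over the 36 members and 0.11 over all tested genes under spike-in scaling. Under relative scaling it was 0.02 over the members and 0.01 over all genes. Of the 36 members, 29 were above 0 and 7 below 0 under spike-in scaling, where 29.6% of all genes were below 0. Under relative scaling 19 were above and 17 below 0, where 48.8% of all genes were below. DESeq2 with its own size factors had 20 members above and 16 below 0, and 46.7% of all genes below. By cluster, the median was 0.28 in Hoxd, 0.18 in Hoxa, 0.17 in Hoxc and 0.01 in Hoxb under spike-in scaling, and 0.11, 0.03, 0.02 and -0.14 in that order under relative scaling. Under spike-in scaling the 3 highest values were those of Hoxd13, Hoxd12 and Hoxd10, and the lowest was that of Hoxd3. Within the Hoxd cluster, Hoxd13, Hoxd12, Hoxd11, Hoxd10 and Hoxd9 were above 0 and Hoxd3 and Hoxd4 below 0 under both scalings. Hoxd8 was at 0.03 under spike-in scaling and at -0.07 under relative scaling. The value of Hoxd4, whose exons overlap those of Hoxd3, was -0.14 ± 0.50 under spike-in scaling (SE, edgeR). This order along the cluster was not tested.

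**Figure D5:**
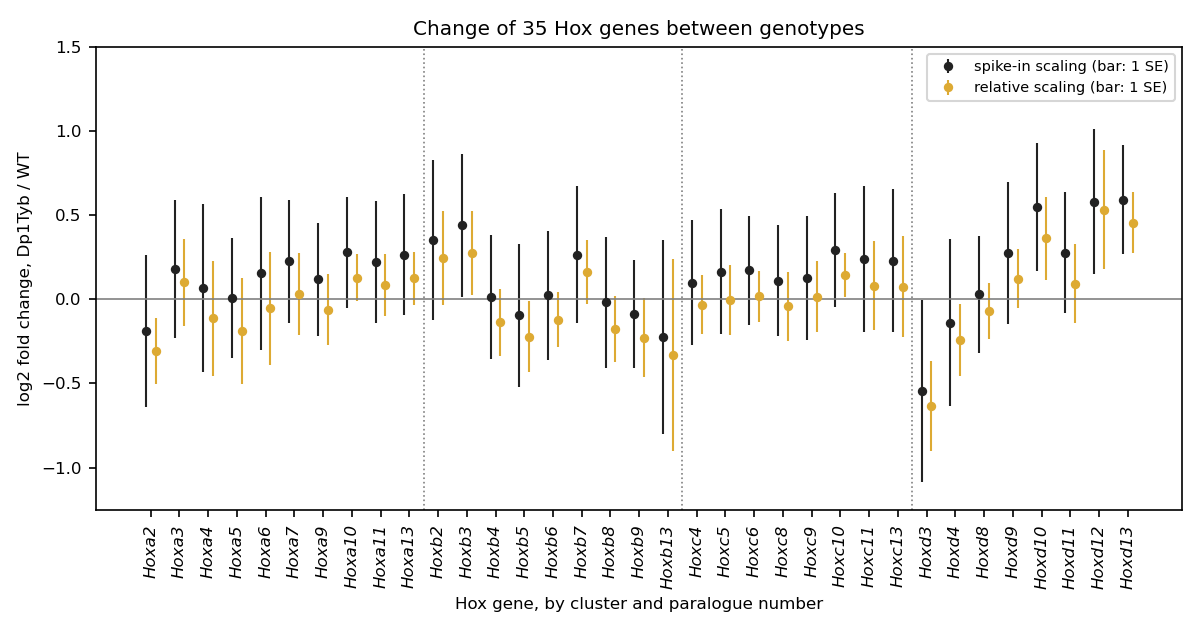
Log2 fold change of 35 of the 36 tested Hox genes (y, Dp1Tyb over WT, bars 1 SE) in cluster order (x) under spike-in and relative scaling. The values run from -0.54 for Hoxd3 to 0.59 for Hoxd13 under spike-in scaling, and none passed the test after adjustment.

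Hoxd13 (chromosome 2, 74668310 to 74671599, GRCm38) had a spike-in scaled level of 18.8, 10.4, 12.1 and 17.6 RPKM across WT replicates 1 to 4. Across Dp1Tyb replicates 1 to 4 it was 32.9, 11.2, 21.9 and 22.7 RPKM. Dp1Tyb replicate 1 was the highest of all libraries, 3 Dp1Tyb libraries lay above all WT libraries, and Dp1Tyb replicate 2 lay among the lower ones of WT. This gave a log2 fold change of 0.59 ± 0.32 (SE, edgeR's quasi-likelihood test, adjusted p = 1.00). Under relative scaling the levels were 15.8, 11.7, 16.9 and 15.1 RPKM in WT and 27.3, 16.2, 20.9 and 17.3 RPKM in Dp1Tyb. The groups overlapped there through WT replicate 3 and Dp1Tyb replicate 2, and the log2 fold change was 0.46 ± 0.18 (SE, edgeR, adjusted p = 1.00). Dp1Tyb replicate 1 and Dp1Tyb replicate 2 pulled the value in opposite directions. Under spike-in scaling it was 0.35 without Dp1Tyb replicate 1 (edgeR, adjusted p = 1.00) and 0.82 without Dp1Tyb replicate 2 (edgeR, adjusted p = 0.699). Under relative scaling it was 0.28 without the former (edgeR, adjusted p = 0.814) and 0.55 without the latter (edgeR, adjusted p = 1.00).

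Hoxd12 had a spike-in scaled level of 2.22, 0.488, 0.600 and 1.03 RPKM in WT and 2.37, 0.877, 1.64 and 1.55 RPKM in Dp1Tyb. WT replicate 1 lay with the highest Dp1Tyb library, far above the other 3 of its group. Its log2 fold change was 0.58 ± 0.43 (SE, edgeR, adjusted p = 1.00), and 1.202 without WT replicate 1 (edgeR, adjusted p = 0.958). It was 0.33 without WT replicate 2, 0.37 without WT replicate 3 and 0.33 without Dp1Tyb replicate 1. Hoxd10 had 4.52, 2.27, 3.44 and 4.59 RPKM in WT and 7.16, 2.14, 4.99 and 7.41 RPKM in Dp1Tyb, where replicates 1, 3 and 4 were above and replicate 2 below all WT libraries. Its log2 fold change was 0.55 ± 0.38 (SE, edgeR, adjusted p = 1.00), 0.83 without Dp1Tyb replicate 2 and 0.37 without Dp1Tyb replicate 4. Under relative scaling it was 0.36, and 0.23 without WT replicate 2.

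The promoters of the 3 Hoxd genes above and of Hoxa13 are given for comparison, since Hoxd13 and Hoxa13 share their role in the limb. The sequences run from 250 bases before to 50 after the start site in RefSeq (GRCm38.p6), 5′ to 3′ on the strand of the gene. Capitals mark matches to TATAAA (the TATA box), to CCAAT (the CCAAT box), to TGACAG (Meis), to TGATTNAT (Pbx with Hox) or to CAATAAA (posterior Hox), each searched on both strands.
Hoxd13, chr2:74667975-74668274, plus strand: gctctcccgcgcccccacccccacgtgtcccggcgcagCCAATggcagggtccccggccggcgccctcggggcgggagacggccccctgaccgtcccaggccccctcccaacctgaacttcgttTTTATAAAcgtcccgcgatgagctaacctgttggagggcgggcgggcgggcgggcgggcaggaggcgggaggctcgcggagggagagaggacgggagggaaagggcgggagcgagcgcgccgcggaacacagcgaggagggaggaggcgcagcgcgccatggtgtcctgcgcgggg
Hoxd12, chr2:74674763-74675062, plus strand: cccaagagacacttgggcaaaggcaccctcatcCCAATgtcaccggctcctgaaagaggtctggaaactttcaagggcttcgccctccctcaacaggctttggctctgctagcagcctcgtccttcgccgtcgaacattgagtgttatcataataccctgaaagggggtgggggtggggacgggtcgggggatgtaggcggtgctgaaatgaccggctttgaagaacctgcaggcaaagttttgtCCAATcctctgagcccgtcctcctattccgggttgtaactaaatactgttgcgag
Hoxd10, chr2:74691641-74691940, plus strand: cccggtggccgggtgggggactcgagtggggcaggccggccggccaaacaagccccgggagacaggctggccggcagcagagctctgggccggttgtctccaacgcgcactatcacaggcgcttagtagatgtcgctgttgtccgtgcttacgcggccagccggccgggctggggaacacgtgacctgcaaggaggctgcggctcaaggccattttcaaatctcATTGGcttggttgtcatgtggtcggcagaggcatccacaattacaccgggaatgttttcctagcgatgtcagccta
Hoxa13, chr6:52260831-52261130, minus strand: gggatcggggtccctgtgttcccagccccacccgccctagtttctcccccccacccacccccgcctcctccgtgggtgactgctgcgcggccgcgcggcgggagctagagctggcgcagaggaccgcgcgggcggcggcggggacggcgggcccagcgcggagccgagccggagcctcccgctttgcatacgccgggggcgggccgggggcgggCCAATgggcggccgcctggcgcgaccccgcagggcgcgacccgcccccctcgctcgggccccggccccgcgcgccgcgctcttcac
The table of promoters held 22 of 20 Hox genes, some with more than 1 start site. The letters CCAAT were found in 13 of these 22 promoters, 59.1%, and in 37.4% of 32851 promoters of the same length. TATAAA was found in 18.2% and 13.6%, TGACAG in 9.09% and 19.2%, TGATTNAT in 9.09% and 3.22%, and CAATAAA in 9.09% and 4.60%. The Hoxd13 promoter held TATAAA on both strands in overlapping letters, and 37 CG dinucleotides. Hoxa13 held 45 CG dinucleotides, Hoxd10 held 22 and Hoxd12 held 13, where the median over all promoters was 7.

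In the remaining group 13 genes the Dp1Tyb libraries did not lie on 1 side of the WT libraries. For Hoxa13, 3 were above and 1 was below all WT libraries. Hoxa13 had a spike-in scaled level of 4.72, 3.20, 3.32 and 5.17 RPKM in WT and 6.09, 2.46, 5.43 and 5.75 RPKM in Dp1Tyb, a log2 fold change of 0.27 ± 0.36 (SE, edgeR, adjusted p = 1.00). Hoxc13 had 1.55, 0.867, 1.10 and 2.01 RPKM in WT and 2.42, 0.532, 1.79 and 1.72 RPKM in Dp1Tyb, a log2 fold change of 0.23 ± 0.43 (SE, edgeR, adjusted p = 1.00). In Hoxa13 and Hoxc13, as in Hoxd13, Dp1Tyb replicate 1 was the highest and replicate 2 the lowest of the Dp1Tyb libraries under spike-in scaling. Dp1Tyb replicate 2 was the lowest of all libraries for 27 of the 36 tested members on that scale. Under relative scaling Hoxa13 was highest in Dp1Tyb replicate 3, at 5.16 RPKM against 5.05 in Dp1Tyb replicate 1. Hoxb13 had 0.0721, 0.356, 0.184 and 0.232 RPKM in WT and 0.106, 0.180, 0.305 and 0.137 RPKM in Dp1Tyb, a log2 fold change of -0.22 ± 0.58 (SE, edgeR, adjusted p = 1.00). The group as a whole made up 14.1% ± 1.41 of the summed Hox level for WT and 17.5% ± 3.71 for Dp1Tyb (SD, n = 4 each), with overlapping ranges of 12.9 to 16.1% and 13.7 to 22.4%.

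Of the most highly expressed genes of the other clusters, Hoxc6 had a spike-in scaled level of 16.4, 11.2, 13.5 and 18.7 RPKM in WT and 16.7, 9.47, 16.8 and 24.4 RPKM in Dp1Tyb, a log2 fold change of 0.17 ± 0.32 (SE, edgeR, adjusted p = 1.00). Hoxb9 had 12.7, 14.99, 15.2 and 29.8 RPKM in WT and 16.5, 10.9, 15.4 and 25.6 RPKM in Dp1Tyb, a log2 fold change of -0.09 ± 0.32 (SE, edgeR, adjusted p = 1.00). Replicate 4 was the highest library of each group for both genes on this scale, on which Dp1Tyb replicate 4 was highest for 23 of the 36 tested members. Under relative scaling Hoxc6 was highest in replicate 3 of WT, at 18.9 RPKM against 16.0 in replicate 4. Hoxa10 had 7.59, 5.63, 5.72 and 8.09 RPKM in WT and 10.5, 4.23, 8.76 and 9.29 RPKM in Dp1Tyb, a log2 fold change of 0.28 ± 0.33 (SE, edgeR, adjusted p = 1.00). It had 3 Dp1Tyb libraries above and 1 below all WT libraries, the 1 being replicate 2, the library with the least RNA per spike-in.

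For Hoxa5 and Hoxa6, which varied widely between cultures, the genotype difference was smaller than its error. Hoxa5 had a spike-in scaled level of 5.82, 3.55, 6.86 and 10.0 RPKM in WT and 6.25, 3.15, 5.35 and 11.8 RPKM in Dp1Tyb, with a log2 fold change of 0.01 ± 0.36 (SE, edgeR, adjusted p = 1.00). Hoxa6 had 2.61, 1.54, 2.51 and 3.57 RPKM in WT and 2.77, 0.908, 2.96 and 4.84 RPKM in Dp1Tyb, with a log2 fold change of 0.15 ± 0.46 (SE, edgeR, adjusted p = 1.00). The values of Hoxa5 and Hoxa6 turned below 0 under relative scaling, to -0.19 and -0.05.

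No member had libraries that separated the groups under spike-in scaling, where 0.285% of all genes were higher and 0.14% lower in every Dp1Tyb library. Under relative scaling 2 members were lower in every Dp1Tyb library, Hoxd3 and Hoxa2, and none was higher, against 1.52% of all genes lower and 1.64% higher. These 2 genes were picked out after their values were seen. Hoxd3 had a relative level of 0.256, 0.182, 0.181 and 0.197 RPKM in WT and 0.120, 0.124, 0.117 and 0.165 RPKM in Dp1Tyb. Its log2 fold change was -0.64 ± 0.27 under relative scaling (SE, edgeR, adjusted p = 1.00) and rests on 9 to 24 counts per library. Hoxa2, a gene of the hindbrain and middle ear, had 1.41, 1.36, 1.44 and 1.80 RPKM in WT and 1.35, 1.04, 1.16 and 1.30 RPKM in Dp1Tyb, a log2 fold change of -0.31 ± 0.20 (SE, edgeR, adjusted p = 1.00). The highest Dp1Tyb and the lowest WT library of Hoxa2 were nearly level, at 1.35 and 1.36 RPKM.

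None of the partners and regulators of the Hox genes was called by edgeR under either scaling or by DESeq2 with its own size factors, and their levels are given on the relative RPKM scale. Of 9 cofactor genes 0 passed in edgeR under either scaling or in DESeq2 with its own size factors, and 0 had an unadjusted p under 0.05 in edgeR. Pbx2 was at 6.73 ± 0.54 RPKM for WT and 7.20 ± 0.48 for Dp1Tyb (SD, n = 4 each) and Meis2 at 6.65 ± 1.10 and 5.77 ± 1.28. Of the 20 Polycomb and trithorax genes 0 passed, nor had any an unadjusted p under 0.05 in edgeR. Rnf2, which encodes the Polycomb ubiquitin ligase, was at 18.1 ± 1.24 RPKM in WT and 17.9 ± 2.24 in Dp1Tyb, Suz12 at 14.8 ± 2.52 and 14.4 ± 2.17, and Kmt2a, a trithorax gene, at 14.2 ± 1.24 and 13.02 ± 2.50. Of the 11 tested genes that flank the clusters or act in retinoic acid and axial signalling, 0 passed and 0 had an unadjusted p under 0.05 in edgeR. The retinoic acid receptor gene Rarg was at 18.6 ± 2.40 RPKM in WT and 20.3 ± 3.77 in Dp1Tyb, Rara at 12.8 ± 2.51 and 12.96 ± 2.62, and Gdf11 at 9.32 ± 1.41 and 9.42 ± 1.48. Cdx1, Cdx2, Cdx4 and Cyp26a1 were not analysed here. Evx2, the neighbour of Hoxd13, had 0.682, 0.638, 0.802 and 0.602 RPKM in WT and 1.15, 0.551, 0.798 and 1.04 RPKM in Dp1Tyb, highest in Dp1Tyb replicate 1 like Hoxd13. It was picked out for its position after its values were seen. Of the 9 tested non-coding genes of the clusters 0 passed and 0 had an unadjusted p under 0.05 in edgeR, with Hoxb5os highest at 2.50 ± 0.828 and 2.42 ± 1.07 RPKM, then Hoxd3os1 at 1.03 ± 0.0914 and 0.985 ± 0.268, and Hoxaas3 at 0.773 ± 0.237 and 0.679 ± 0.210.

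Genes that mark body regions were present for limb, trunk and body wall beside the Hox genes. Tbx5, the forelimb gene, had a relative level of 6.64, 2.24, 3.66 and 3.20 RPKM in WT and 5.25, 2.33, 3.85 and 4.04 RPKM in Dp1Tyb. It was highest in replicate 1 of either genotype and lowest in both replicates 2. Tbx4 and Pitx1, the hindlimb genes, ran from 2.81 to 5.33 and from 2.08 to 4.94 RPKM over the 8 libraries, both highest in Dp1Tyb replicate 1. Of 18 tested limb genes 0 passed in edgeR, and 1 had an unadjusted p under 0.05 under relative scaling, Msx1, at 2.93 ± 0.12 RPKM for WT and 3.77 ± 0.55 for Dp1Tyb (SD, n = 4 each, edgeR, adjusted p = 1.00). Grem1 was highest of the limb list, at 122 ± 74.3 and 123 ± 24.3 RPKM, followed by Shox2 at 11.7 ± 1.86 and 10.9 ± 1.09 and En1 at 9.64 ± 3.29 and 8.11 ± 1.82. The summed level of the limb list ran from 125.7 RPKM in WT replicate 1 to 297.9 RPKM in WT replicate 4, of which Grem1 alone made up 60.8 and 226 RPKM. Of the 16 trunk and body wall genes 0 passed and 0 had an unadjusted p under 0.05 in edgeR, with Tbx15 at 34.8 ± 3.43 RPKM in WT and 34.2 ± 5.58 in Dp1Tyb, Foxc1 at 6.36 ± 1.39 and 6.59 ± 2.63, and Tbx18 at 6.32 ± 2.13 and 6.05 ± 1.57. Of the 14 tested visceral mesoderm genes 0 passed in edgeR, 1 had an unadjusted p under 0.05 under both scalings, Tbx20, which was lower in Dp1Tyb at 0.0996 against 0.196 RPKM in WT (edgeR, adjusted p = 1.00), and the most highly expressed were Osr1 at 14.3 ± 2.54 and 12.8 ± 1.54, Emx2 at 7.38 ± 1.67 and 7.66 ± 1.14 and Osr2 at 3.64 ± 1.48 and 3.07 ± 1.05 RPKM. Head genes were low: Dlx2 was at 1.22 ± 0.895 and 0.912 ± 0.428 RPKM and Gsc at 0.861 ± 0.368 and 0.530 ± 0.385, and 0 of 8 tested passed in edgeR or had an unadjusted p under 0.05.

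Markers of other cells are given beside the Hox comparison, and edgeR called none of them under either scaling. Of the 6 leukocyte markers, all had a log2 fold change below 0 under both scalings, 5 at an unadjusted p under 0.05 under relative scaling and 1 under spike-in scaling. Ptprc, which marks all leukocytes, was called by DESeq2 with its own size factors (adjusted p = 5.89e-07) and not by edgeR (adjusted p = 0.0903 under relative scaling), at 0.787 ± 0.0389 RPKM in WT and 0.431 ± 0.0298 in Dp1Tyb. The median log2 fold change of the list was -0.67 under relative scaling. Of 3 tested muscle markers, 3 had an unadjusted p under 0.05 in edgeR and were higher under spike-in scaling, 0 under relative scaling and 0 after adjustment. The summed spike-in scaled level of the 4 listed muscle markers overlapped, from 3.34 to 13.4 RPKM in WT and from 2.10 to 18.8 RPKM in Dp1Tyb. Under relative scaling this sum was highest in Dp1Tyb replicate 2 and lowest in Dp1Tyb replicate 1. Of 6 tested neural markers 2, Sox2 and Nes, were lower at an unadjusted p under 0.05 under relative scaling, and 1, Sox2, under spike-in scaling. Of 5 endothelial, 6 cartilage, 3 epithelial and 1 cardiac or hepatic markers tested, 0 had an unadjusted p under 0.05 in edgeR under either scaling. The part of these cells in the Hox values was not tested.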

How the data were processed

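Poly(A) RNA of 8 MEF cultures was sequenced as 100-base paired ends after the addition of ERCC spike-ins. The authors trimmed reads with Trim Galore, aligned them to GRCm38 with TopHat2 2.0.12, discarded reads with several alignments and counted genes with HTSeq; the annotation release and strand setting are not given in the sources used here. The deposited raw counts per gene were used; the deposited size-factor-normalised table and the authors' DESeq2 1.6.3 comparison (fold changes, p-values) were not. Discarding multi-aligned reads can lower the counts of genes with near-identical copies.

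Groups came from the sample labels. Positions and merged exon lengths came from GENCODE M21 (GRCm38). Dp1Tyb was compared with WT by edgeR 4.0.16 (R 4.3.3) after filterByExpr, which kept 16470 genes of 19493, with median-of-ratios factors of 63 spike-ins; relative scaling used TMM factors. The threshold for a call was 0.05 after Benjamini-Hochberg adjustment. SEs were the log2 fold change divided by the root of the F statistic. Under spike-in scaling they were 0.32 for Hoxb9, Hoxc6 and Hoxd13 alike, against 0.24, 0.15 and 0.18 under relative scaling. An SE under spike-in scaling is therefore not the spread of that gene alone. RPKM are counts scaled by exon length and effective library size. Between-library SDs were taken within genotype, with a pseudocount of 0.5 counts. DESeq2 1.42.0, other scalings and filters, a replicate block and the omission of each library were alternatives. The edgeR fits were tested on simulated data in which all genes had the same spread and counts followed the scaling factors on average. Those data lacked the spread that spike-in scaling carries here, so they cannot show which changes the spike-in fit would find. Libraries of 1 genotype differed by a chi-square per degree of freedom of 10.4 to 95.7, so none was a duplicate, and each was counted as 1 replicate.

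The members and gene lists (cofactors, neighbours and regulators, chromatin, cluster non-coding, limb, trunk, visceral and head genes, and markers of fibroblasts, leukocytes, endothelium, muscle, cartilage, nerve, epithelium and heart or liver) were chosen with earlier results of these data known. Members given with values in every library were the highest of each cluster, group 13, the 3 smallest p and the 5 largest SDs; Hoxd3 and Hoxa2 were added after their values were seen. From each list, genes called were named, otherwise the 3 with the highest level. Some genes that these rules name, and 1 sequence, are not reported here.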

Additional observations from a re-analysis of the deposited data

Results flagged for a closer look

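In 90 groups of 4 libraries (levels of the 37 Hox genes, summed levels and shares of the 4 clusters, in each genotype), 1 library lay apart from the others of its group: the spike-in scaled level of Hoxb9 in WT replicate 4 was 29.8 RPKM, against 12.7, 14.99 and 15.2 RPKM in the other WT libraries. The gap to the next library was 0.853 of the range of the group. Chance marks about 1 in 20 groups by this measure. Under relative scaling the same library had 25.5 RPKM and the next, WT replicate 3, had 21.3 RPKM. WT replicate 4 had an RNA content per spike-in of 1.17, and its part in the value was not tested. Without WT replicate 4, the log2 fold change of Hoxb9 turned from -0.09 to 0.26 under spike-in scaling (edgeR, adjusted p = 1.00).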

How the results depend on the processing

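No Hox gene was called under any of the 24 other settings run, and Hoxd13, Hoxd12, Hoxd10, Hoxa10, Hoxa13 and Hoxd3 kept the sign of their log2 fold change in all of those in which they were tested. Their size moved: under relative scaling Hoxa10 went from 0.28 to 0.13 and Hoxa13 from 0.27 to 0.13, without Dp1Tyb replicate 2 both were 0.50, without Dp1Tyb replicate 1 they were 0.15 and 0.16, Hoxa13 was 0.16 without WT replicate 2 and 0.18 without WT replicate 3, and Hoxd3 went from -0.54 to -0.29 without WT replicate 1 and to -0.34 without Dp1Tyb replicate 2. Under relative scaling the values without 1 library that moved by over 1.5 times were, for Hoxa10, 0.053 without Dp1Tyb replicate 1, 0.084 without Dp1Tyb replicate 3, 0.22 without WT replicate 3 and 0.22 without Dp1Tyb replicate 2, for Hoxa13, 0.063 without Dp1Tyb replicate 3, 0.069 without Dp1Tyb replicate 1, 0.073 without WT replicate 2, 0.19 without WT replicate 3 and 0.22 without Dp1Tyb replicate 2, for Hoxd10, 0.23 without WT replicate 2, for Hoxd12, 0.99 without WT replicate 1 and 0.34 without WT replicate 2 (0.53 with all libraries), and for Hoxd13, 0.28 without Dp1Tyb replicate 1 (0.46 with all). Hoxa5 and Hoxa6 lay below 0 with relative scaling (-0.19 and -0.054), with median-of-ratios factors over endogenous genes (-0.18 and -0.047) and with DESeq2 and its own size factors (-0.18 and -0.048), and Hoxa5 with the replicate block (-0.048). Leaving out each library under spike-in scaling, the values that changed sign ran from -0.34 to 0.031 for Hoxa2, -0.41 to 0.29 for Hoxa5, -0.21 to 0.47 for Hoxa6, -0.57 to 0.16 for Hoxb13, -0.35 to 0.26 for Hoxb9, -0.030 to 0.54 for Hoxc13 and -0.058 to 0.38 for Hoxc6. Leaving out each library under relative scaling, chosen after seeing the data, those opposite in sign to the spike-in value were: without Dp1Tyb replicate 1 -0.13 for Hoxa5, -0.0076 for Hoxa6, -0.13 for Hoxc13, without Dp1Tyb replicate 2 -0.084 for Hoxa5, without Dp1Tyb replicate 3 -0.12 for Hoxa5, -0.11 for Hoxa6, -0.0063 for Hoxc13, without Dp1Tyb replicate 4 -0.45 for Hoxa5, -0.28 for Hoxa6, -0.079 for Hoxc6, without WT replicate 1 -0.31 for Hoxa5, -0.13 for Hoxa6, -0.024 for Hoxc6, without WT replicate 2 -0.36 for Hoxa5, -0.20 for Hoxa6, 0.11 for Hoxb13, -0.054 for Hoxc6, -0.052 for Hoxc13, without WT replicate 4 -0.051 for Hoxa5. The cause was not tested. Over all genes 2 were called, 54 with DESeq2 and its own size factors, 9 with the replicate block, and 2 to 8 without 1 library under spike-in scaling (8 without Dp1Tyb replicate 2, 6 without WT replicate 1 or Dp1Tyb replicate 4, 4 without Dp1Tyb replicate 1), while relative scaling without 1 library called 1 gene each time. With at least 10 counts in every library edgeR called 0 of 14599 genes, and 156 had an unadjusted p under 0.05. The median log2 fold change of the members ran from -0.06 without Dp1Tyb replicate 4 to 0.38 without Dp1Tyb replicate 2. The median between-library SD of 0.33 was 0.56 with spike-in scaling, 0.19 with the replicate block, and 0.25 to 0.34 without 1 library. The Hoxa share of 23.8% was 25.7% with CPM in place of RPKM.

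Replicates with the same number deviated together with r of 0.37, 0.52, 0.03 and 0.33 over genes, which are not independent replicates, and WT replicate 3 went best with Dp1Tyb replicate 4 (0.32), so the numbers were not taken as a pairing. With the replicate block, 2 members had an unadjusted p under 0.05 against 0 without it, as did 499 of all 16470 tested genes against 192, and the log2 fold change was 0.54 for Hoxd13 (edgeR, adjusted p = 1.00) and 0.73 for Hoxd12 (edgeR, adjusted p = 1.00). Counts of 3 to 24 limit Hoxb13, Hoxc12 and Hoxd3.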
